A study of Mus musculus with 63 samples.

Results

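The 10 genes described here are markers of pericytes and vascular smooth muscle, the mural cells that wrap the blood vessels of the cortex. They are Pdgfrb, Rgs5, Vtn, Higd1b, Kcnj8 and Abcc9, which mark pericytes, Acta2, Myh11 and Tagln, which belong to the contractile apparatus of smooth muscle, and Notch3, which is used by both cell types. They were taken by name and not by their values, though earlier results of these data were known. They make up 10 of the 56980 gene entries of each deposited count table, of which 52073 carried a symbol. All 10 were found in all 4 tables.

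RNA-seq was performed on 4 populations of cells sorted from the cortex of female C57BL/6J mice, 5 weeks after a full-thickness skin burn over 7 to 8% of the body surface or a sham procedure without the burn. The mice were 12 weeks old on arrival, and every mouse, sham mice included, received an injection of 2 adeno-associated viruses into the motor cortex, with eGFP under the CaMKII promoter and mRuby2 under the mDlx enhancer. CaMKII positive and CaMKII-mDlx double-positive cells were sorted by these fluorophores from the motor cortex. ACSA2-positive astrocytes and CD11b-positive microglia were sorted with antibodies from the cortex caudal to it, so that region and gate cannot be told apart between the former pair and the latter. None of the gates selected mural cells, and the mice were perfused with saline and the suspensions depleted of myelin before sorting. The 58 libraries used came from 17 mice, with 4 burn and 6 sham CaMKII positive libraries, 9 and 7 double-positive, 9 and 8 ACSA2-positive, and 8 and 7 CD11b-positive libraries. They held 13346143 to 134703744 counts each.

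Pericytes sit on capillaries, where endothelial cells recruit and keep them by secreting PDGF-B, the ligand of the receptor that Pdgfrb encodes. Smooth muscle cells form the contractile coat of arterioles, and both types set vessel diameter and depend on Notch signals from the endothelium. In the brain, pericytes are also required for the blood-brain barrier.

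Upstream sequence is shown for 1 contractile and 2 pericyte genes, so that both kinds of member are represented. The RefSeq promoter table (GRCm38.p6) held 6 of the 10 genes, Rgs5, Kcnj8, Abcc9, Vtn, Notch3 and Acta2. The 250 bases before the start that this table gives for each gene were searched on both strands for the CArG box, the site of serum response factor in genes of smooth muscle, written as CC, then 6 bases that are each A or T, then GG. Acta2 (chromosome 19, 34240336 to 34255585), which encodes smooth muscle alpha-actin, held 2 sites with 1 of the 6 middle letters changed, at 84 to 75 and at 34 to 25 bases before the start of that table. That start lies inside the gene as RefSeq spans it, and 217 of the 250 bases searched are exon of Acta2 in GENCODE M21, so both sites fall within the annotated gene. They are printed 5′ to 3′ on the minus strand with the site in capitals.
Acta2, chr19:34255438-34255467: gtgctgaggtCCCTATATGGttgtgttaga
Acta2, chr19:34255388-34255417: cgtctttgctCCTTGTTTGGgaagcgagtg
An exact CArG box was present in 1.47% of 32851 promoters of this length, and a box with 1 such change in 8.59%. The windows of Rgs5, Kcnj8, Abcc9, Vtn and Notch3 held neither form. The 2 windows below belong to the pericyte genes Rgs5, the member of highest CPM in the CaMKII positive libraries, and Kcnj8, the member that followed Vtn most closely between CaMKII positive and between ACSA2-positive libraries. The window of Kcnj8 held 1 E-box (CANNTG, in capitals, 160 to 155 bases before the start), a sequence found in 66.2% of promoters, and those of Rgs5 and Notch3 held none. The windows of Abcc9, Vtn and Acta2 held 1, 2 and 3 E-boxes, and those of Acta2 did not overlap its 2 CArG-like sites. The core site of the Notch effector RBPJ (TGGGAA, in 21.6% of promoters) was present once in each of the windows of Abcc9, Vtn and Acta2, and in Acta2 it overlapped the second of those sites. These matches are descriptions of the letters and not of binding.
Rgs5, chr1:169655251-169655500, plus strand: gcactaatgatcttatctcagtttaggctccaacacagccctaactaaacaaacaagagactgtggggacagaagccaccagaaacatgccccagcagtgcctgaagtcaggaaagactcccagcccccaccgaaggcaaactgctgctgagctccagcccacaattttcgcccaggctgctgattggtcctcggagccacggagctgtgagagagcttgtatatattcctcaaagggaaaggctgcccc
Kcnj8, chr6:142571615-142571864, minus strand: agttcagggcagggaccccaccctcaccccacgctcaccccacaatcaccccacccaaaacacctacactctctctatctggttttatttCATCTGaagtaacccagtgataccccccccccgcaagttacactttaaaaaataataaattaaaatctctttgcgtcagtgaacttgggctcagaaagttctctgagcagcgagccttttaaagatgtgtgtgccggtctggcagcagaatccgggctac

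The labels of the motor cortex gates were checked against markers of the cells they name. Summed over 7 neuronal genes, the CaMKII positive libraries held 33.7 to 474 CPM (counts of a gene per 1e6 library counts) and the double-positive libraries 18.0 to 71.3 CPM. The sum of 6 astrocyte genes was 12189 to 23237 CPM in the CaMKII positive libraries, and that of 6 microglial genes was 14382 to 28345 CPM in the double-positive ones. The data thus went against the label of neurons for both, and the names CaMKII positive and double-positive stand below for the gate only. The glial labels carried their own markers, with 33079 to 47178 CPM of astrocyte genes in ACSA2-positive and 17798 to 28721 CPM of microglial genes in CD11b-positive libraries. Endothelial genes (9 in the list) summed to 4330 to 12135 CPM in the CaMKII positive libraries and to 168 to 1626 CPM in the ACSA2-positive libraries. Because these are bulk samples, fewer cells of a type and less RNA per cell cannot be told apart in any value given here.

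The pericyte genes and Notch3 were higher in the CaMKII positive and ACSA2-positive libraries than in the other 2 populations, while the 3 contractile genes had their highest mean CPM in the CaMKII positive libraries and means of 3.26 CPM for Myh11 and 2.34 CPM for Tagln in the ACSA2-positive libraries, beside 1.90 CPM for Tagln in the double-positive libraries. The 6 pericyte genes summed to 1139 ± 320 CPM (SD, n = 10) in the CaMKII positive libraries and to 807 ± 198 CPM (n = 17) in the ACSA2-positive libraries. Double-positive libraries held 25.0 ± 13.7 CPM (n = 16) and CD11b-positive libraries 7.30 ± 4.72 CPM (n = 15). The 3 contractile genes fell in the same order, with 121 ± 152, 17.8 ± 12.8, 3.87 ± 3.26 and 2.19 ± 1.44 CPM. The first of these means rested on the library of mouse 8 (536 CPM), and without it, a choice made after seeing the data, it was 75.2 ± 45.9 CPM (n = 9).

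**Figure D1:**
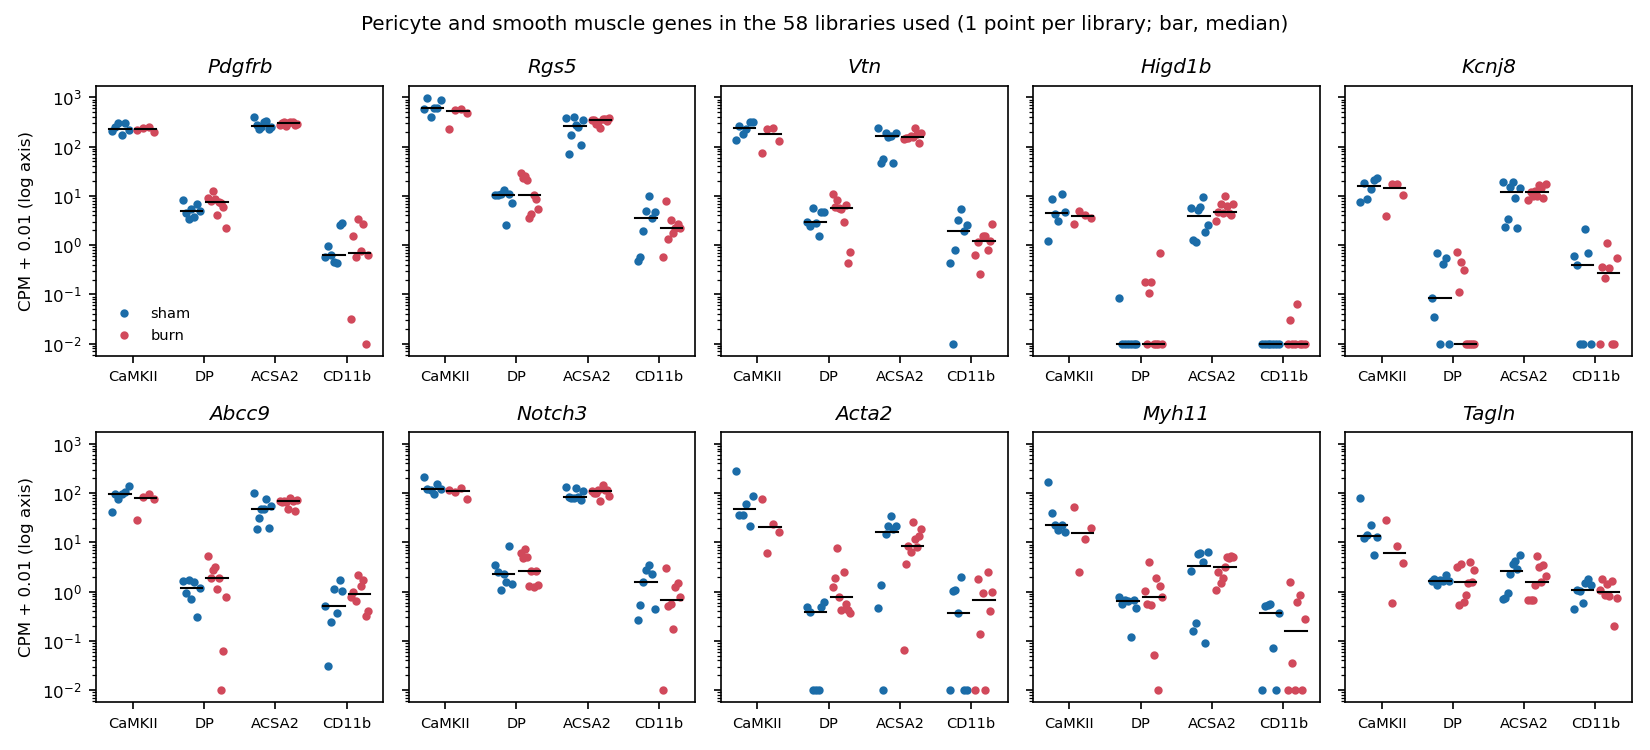
Level of each of the 10 genes in the 58 libraries used, as CPM + 0.01 on a log axis, by sorted population (CaMKII, CaMKII positive, DP, double-positive) and treatment, with 1 point per library and a bar at the median. The CaMKII positive and ACSA2-positive points lie above the other 2 populations for the pericyte genes and Notch3, while Tagln lies between 0.538 and 3.90 CPM in double-positive libraries, within reach of the ACSA2-positive ones.

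Pdgfrb, the receptor tyrosine kinase that marks pericytes, varied least of the members in the CaMKII positive and ACSA2-positive libraries. In CaMKII positive libraries it ran from 173 to 308 CPM (median 229, n = 10), with a coefficient of variation of 18.6%, and in ACSA2-positive libraries from 226 to 391 CPM (median 288, n = 17), with 14.4%. The double-positive range was 2.21 to 12.8 CPM (median 6.38) and the CD11b-positive range 0 to 3.45 CPM (median 0.631). The groups with high and low Pdgfrb did not overlap, and every library of the first 2 populations lay above every library of the others.

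Rgs5, a regulator of G protein signalling that is among the most abundant transcripts of brain pericytes, reached the highest CPM of the members. It ran from 229 to 958 CPM (median 587) in the CaMKII positive, from 72.0 to 395 CPM (median 327) in the ACSA2-positive, from 2.61 to 29.5 CPM (median 10.6) in the double-positive and from 0.456 to 9.92 CPM (median 2.20) in the CD11b-positive libraries. Vtn encodes vitronectin, an adhesion protein of plasma and matrix that pericytes secrete in the brain. Its levels were 73.3 to 317 CPM (median 226), 45.4 to 235 CPM (median 159), 0.423 to 10.9 CPM (median 4.66) and 0 to 5.32 CPM (median 1.21) in the same order. Both genes covered a wider range than Pdgfrb, with the highest CaMKII positive library 4.18 times the lowest for Rgs5 and 4.33 times for Vtn, against 1.78 times for Pdgfrb. The lowest library was that of mouse 2 for both, and without it, a choice made after seeing the data, the ratios were 2.43 for Rgs5 and 2.39 for Vtn.

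Higd1b, a hypoxia-inducible domain gene used as a pericyte marker, was low but present in every CaMKII positive library (1.21 to 10.7 CPM, 32 to 361 counts) and every ACSA2-positive library (1.15 to 9.85 CPM, 41 to 271 counts). It was listed at 0 in 11 of 16 double-positive libraries and in 13 of 15 CD11b-positive libraries. At the depths of those populations a count of 0 allows at most 0.212 and 0.181 CPM, by a limit of 3 counts that covers counting error only.

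Kcnj8 and Abcc9 encode the pore and the regulatory subunit of the ATP-sensitive potassium channel of mural cells, which hyperpolarises them when ATP falls. The genes are neighbours on chromosome 6 (Kcnj8 at 142564837 to 142571614, Abcc9 at 142587862 to 142702766), separated by 16247 bases and both on the minus strand. Kcnj8 ran from 3.95 to 22.7 CPM (median 15.7) in CaMKII positive and from 2.23 to 19.0 CPM (median 11.8) in ACSA2-positive libraries, and was at 0 in 7 of 16 double-positive and 6 of 15 CD11b-positive libraries. Abcc9 ran from 28.8 to 142 CPM (median 89.0) and from 18.4 to 99.1 CPM (median 65.4), with at most 5.40 and 2.20 CPM in the double-positive and CD11b-positive libraries. In CaMKII positive libraries both genes were lowest in sequencing batch 1, the libraries of mice 2 and 8. Kcnj8 stood there at 3.95 and 7.65 CPM against 8.51 to 22.7 CPM in batch 3, and Abcc9 at 28.8 and 42.1 CPM against 75.5 to 142 CPM. Per kilobase of exon, the level of Kcnj8 was 0.545 ± 0.104 times that of Abcc9 in CaMKII positive libraries (0.369 to 0.695) and 0.645 ± 0.259 times in ACSA2-positive libraries (0.358 to 1.31). The 2 ratios overlapped, and the pore subunit was the lower of the pair in all CaMKII positive libraries. Kcnj11 and Abcc8, which form the channel of neurons and endocrine cells, averaged 2.01 ± 2.01 and 0.151 ± 0.451 CPM in CaMKII positive libraries and 1.01 ± 1.14 and 0.113 ± 0.190 CPM in ACSA2-positive libraries.

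The contractile genes had the largest coefficients of variation of the members in the CaMKII positive (123% to 129.7%) and ACSA2-positive libraries (67.2% to 82.1%). Acta2 was measured in the 4 burn CaMKII positive libraries at 77.3, 6.13, 24.0 and 16.5 CPM (mice 2, 20, 22 and 24) and in the 6 sham ones at 286, 36.5, 35.2, 59.2, 21.1 and 87.1 CPM (mice 8, 15, 16, 17, 18 and 19). Myh11, the smooth muscle myosin heavy chain, stood at 53.4, 2.53, 11.8 and 19.3 CPM and at 170, 39.0, 22.7, 17.7, 22.7 and 16.2 CPM in the same libraries. Tagln, which encodes the actin-binding protein transgelin, stood at 29.1, 0.572, 8.32 and 3.80 CPM and at 80.3, 12.2, 14.03, 22.1, 5.52 and 13.1 CPM. The library of mouse 8 was the highest for all 3 genes and that of mouse 20 the lowest. Without the library of mouse 8 the mean fell from 64.9 to 40.3 CPM for Acta2, from 37.6 to 22.8 CPM for Myh11 and from 18.9 to 12.1 CPM for Tagln. The highest library held 46.6 times the Acta2, 67.4 times the Myh11 and 140 times the Tagln of the lowest. The library of mouse 8 also had the highest sums of the fibroblast list (725 CPM, range of all 10 libraries 57.0 to 725 CPM) and of the oligodendrocyte list (3069 CPM, 196 to 3069 CPM), and the part of these cells in its contractile values was not tested.

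In the ACSA2-positive libraries Acta2 ran from 0 to 34.1 CPM (median 11.9), Myh11 from 0.0810 to 6.34 CPM (median 3.18) and Tagln from 0.676 to 5.52 CPM (median 2.05). Acta2 there followed the sequencing batch, with 0 to 8.46 CPM in the 7 libraries of batches 1 and 2 and 8.10 to 34.1 CPM in the 10 libraries of batch 3. Double-positive libraries held 0 to 7.53 CPM of Acta2, 0 to 4.03 CPM of Myh11 and 0.538 to 3.90 CPM of Tagln, and CD11b-positive libraries 0 to 2.46, 0 to 1.54 and 0.195 to 1.84 CPM. Tagln was thus never at 0, also where Acta2 and Myh11 were. In GENCODE M21, 67.9% of the exon bases of Tagln (chromosome 9, 45929628 to 45936058) are overlapped on the opposite strand by Pcsk7 and Gm48529. Pcsk7 averaged 46.2, 41.9, 33.8 and 38.3 CPM in the CaMKII positive, double-positive, ACSA2-positive and CD11b-positive libraries. The sources used here do not give the strand setting of the counting, so reads of Tagln and Pcsk7 cannot be told apart and low values of Tagln are uncertain.

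Notch3, the Notch receptor of mural cells, ran from 76.3 to 208 CPM (median 118) in CaMKII positive and from 68.1 to 149 CPM (median 101) in ACSA2-positive libraries. The double-positive libraries held 1.07 to 8.33 CPM (median 2.54) and the CD11b-positive libraries 0 to 3.39 CPM (median 0.783). Its coefficients of variation in the first 2 populations, 29.1% and 22.4%, lay between those of Pdgfrb and those of Rgs5 (35.9% and 32.7%).

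Set per kilobase of exon, so that genes can be compared, the mean level in CaMKII positive libraries fell in the order Rgs5 (130 CPM per kilobase), Vtn (103), Pdgfrb (43.0), Acta2 (29.5), Notch3 (15.3), Abcc9 (10.1), Tagln (9.52), Higd1b (5.67), Kcnj8 (5.57) and Myh11 (4.94). For the ACSA2-positive libraries the order was Vtn (74.8), Rgs5 (64.0), Pdgfrb (52.9), Notch3 (12.6), Abcc9 (6.87), Higd1b (5.80), Acta2 (5.57), Kcnj8 (4.48), Tagln (1.18) and Myh11 (0.429). Rgs5, Vtn and Pdgfrb filled the first 3 places of both. Acta2 and Tagln stood lower in the second order than in the first. Within batch 3 Acta2 came just before Notch3 in CaMKII positive libraries (16.3 against 14.1 CPM per kilobase) and just after it in ACSA2-positive libraries (8.54 against 12.5), ahead of Abcc9, Higd1b and Kcnj8 in both, and Tagln came after Higd1b and Kcnj8 in CaMKII positive libraries too (5.02 against 6.52 and 6.40 CPM per kilobase). Per kilobase, Rgs5 was 1.31 ± 0.345 times Vtn in CaMKII positive libraries (0.892 to 1.96) and 0.893 ± 0.204 times in ACSA2-positive libraries (0.662 to 1.40). The range of each ratio included 1, so these neighbours in the order did not differ beyond their spread.

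The CaMKII positive and double-positive populations, sorted from the same tissue, were compared first. All 10 members were called higher in CaMKII positive libraries (p.adj at most 0.05 and absolute log2FC of at least 1, edgeR), where 26.4% of 30693 genes tested were called higher. The log2FC was 5.10 for Pdgfrb (SE 0.21), 5.66 for Rgs5 (SE 0.35), 5.37 for Vtn (SE 0.40), 6.25 for Higd1b (SE 0.93), 5.83 for Kcnj8 (SE 0.73), 5.81 for Abcc9 (SE 0.49) and 5.10 for Notch3 (SE 0.29). Among the contractile genes it was 5.59 for Acta2 (SE 0.58), 4.67 for Myh11 (SE 0.51) and 2.22 for Tagln (SE 0.45). Tagln had the largest p.adj of the 10, at 0.000139. The median log2FC of the members was 5.48, beside 0.05 over all genes tested. In 7 of the 10 every CaMKII positive library lay above every double-positive library, as it did for 12.2% of all genes tested, and the ranges overlapped for Acta2, Myh11 and Tagln.

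Other vascular genes were higher in the same libraries, in the fit where 26.4% of 30693 genes tested were called higher and 5956 lower. All 9 endothelial genes were called higher in CaMKII positive libraries (median log2FC 6.63), as were all 15 other pericyte genes (median 5.09), led by the transcription factor Foxc1 at 140 CPM. Of the 13 other smooth muscle genes 11 were called higher and 1, the transcription factor Srf, lower (log2FC −1.65), with Synpo2 the highest of them at 124 CPM. The sum of the pericyte members was 0.193 ± 0.0731 times that of the endothelial list in CaMKII positive libraries and 0.200 ± 0.0695 times in double-positive libraries, ratios that overlapped.

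**Figure D2:**
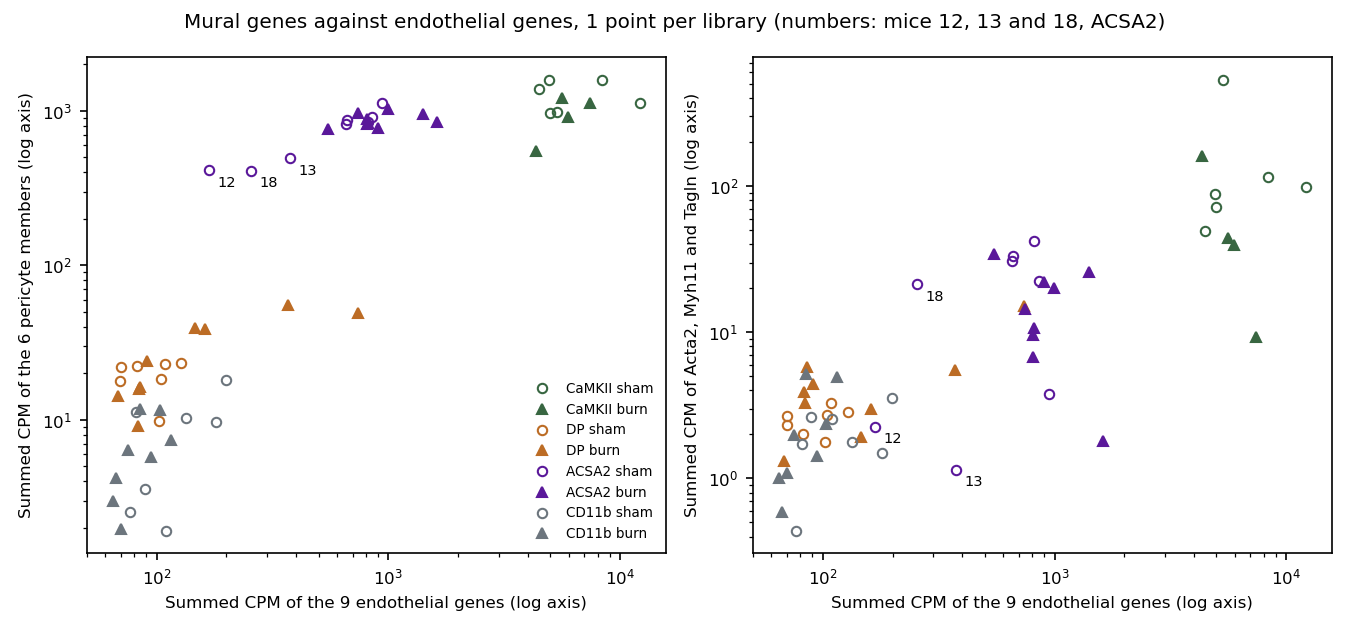
Summed CPM of the 6 pericyte genes (left) and of Acta2, Myh11 and Tagln (right) against the summed CPM of the 9 endothelial genes, both on log axes, with 1 point per library, marked by population and treatment. The ACSA2-positive libraries reach pericyte sums of 410 to 1122 CPM at endothelial sums under 1626 CPM, whereas the CaMKII positive libraries have pericyte sums of 551 to 1589 CPM at endothelial sums of 4330 CPM or more.

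ACSA2-positive and CD11b-positive libraries, both from the caudal cortex, gave a like contrast. Of the 10 members 9 were called higher in ACSA2-positive libraries, beside 32.4% of 30983 genes tested. Higd1b was among the 9 but entered the fit only through the ACSA2-positive libraries, where it was high, so its call carries no weight. The log2FC was 8.05 for Pdgfrb (SE 0.37), 6.74 for Rgs5 (SE 0.37), 6.96 for Vtn (SE 0.36), 4.93 for Kcnj8 (SE 0.56), 6.27 for Abcc9 (SE 0.31) and 6.53 for Notch3 (SE 0.36). Acta2 (3.71, SE 0.72, p.adj = 3.29e-05) and Myh11 (3.06, SE 0.71, p.adj = 0.000304) differed by less. Higd1b had 2358 counts in all ACSA2-positive libraries and 2 in all CD11b-positive libraries, a ratio of pooled CPM of 1048 with an exact 95% counting interval of 290 to 8663. Tagln did not reach the fold minimum (log2FC 0.95, SE 0.35, p.adj = 0.0164) and passed it in the 15 mice with both libraries, without a block (1.01) and with the mouse as a replicate block (1.08), and also within batch 3 (1.58), within sham mice (1.15) and without the ACSA2-positive libraries of mice 12, 13 and 18 (1.04). The member median, with Higd1b included, was 6.40, against 0.28 over all genes tested. No ACSA2-positive library overlapped a CD11b-positive one in 7 of the 10, beside 13.4% of all genes tested, the exceptions again being Acta2, Myh11 and Tagln. Higd1b was among the 7, and its lack of overlap carries no weight for the same reason as its call.

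Between CaMKII positive and ACSA2-positive libraries, which differ in both gate and region, 2 members were called, a share near that of all genes. Myh11 was called higher in CaMKII positive libraries (log2FC 2.75, SE 0.54, p.adj = 0.000187), as was Tagln (2.26, SE 0.55, p.adj = 0.00176), 2 of 10 members beside 12.7% of 30729 genes tested. Within batch 3 the count was 1 of 10 beside 11% of 28238 genes tested, with Myh11 at 1.80 and Tagln at 1.14 (SE 0.44, p.adj = 0.0626). Acta2 stood at 1.70 (SE 0.69, p.adj = 0.0637). Rgs5 (0.74, SE 0.22, p.adj = 0.00955) and Pdgfrb (−0.50, SE 0.10, p.adj = 0.000350) passed the p.adj and missed the fold minimum. The log2FC was 0.12 for Vtn (SE 0.24), 0.30 for Abcc9 (SE 0.25), −0.07 for Kcnj8 (SE 0.31), −0.40 for Higd1b (SE 0.35) and 0.08 for Notch3 (SE 0.13), none of them past the threshold. In the same fit 9 of 9 endothelial genes were called higher in CaMKII positive libraries (median 2.83). There 6 of 6 astrocyte genes were called lower (median −1.28), beside 1074 of 30729 genes tested. Pericyte members stood at 1.18 ± 0.419 times the endothelial sum in ACSA2-positive libraries (0.522 to 2.45), above every CaMKII positive library (0.0921 to 0.321). The ranges of the 2 populations overlapped for all 10 members, where 4.92% of all genes tested had every CaMKII positive library above every ACSA2-positive one.

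Of the remaining population pairs, CaMKII positive against CD11b-positive libraries had all 10 members called higher, beside 28.3% of all genes tested. With Higd1b left out, the log2FC ran from 3.37 for Tagln to 7.47 for Pdgfrb. Higd1b had 1214 against 2 counts and entered this fit only through the group where it was high, so its call carries no weight. Double-positive libraries were lower than ACSA2-positive ones in 9 of 10, beside 30.7%, with Tagln not called (log2FC −0.14, SE 0.33, p.adj = 0.722). The 2 low populations also differed. Pdgfrb (2.32), Rgs5 (1.81), Vtn (1.64) and Notch3 (1.36) were called higher in the double-positive libraries. Higd1b was called too (p.adj = 0.0473, edgeR), which made 5 of 10 members beside 5.6% of 28752 genes tested, but it had 32 counts in the double-positive libraries, 13 of them in mouse 23, and 2 in the CD11b-positive ones, and so entered the fit only through the group where it was high. The ratio of its pooled CPM was 16.8, with an exact 95% counting interval of 4.27 to 144. Kcnj8 (−1.17), Abcc9 (0.67), Acta2 (−0.17), Myh11 (1.11) and Tagln (0.77) were not called. In the 14 mice with both libraries 3 of the 5 passed without a block, Pdgfrb (2.19), Rgs5 (1.66) and Vtn (1.51), beside 1158 of 28169 genes tested called higher. With the mouse as a replicate block 2 passed, Pdgfrb (2.64) and Rgs5 (1.79), beside 746 of 28169 genes. Pdgfrb, Rgs5 and Vtn were also the 3 that passed without the double-positive library of mouse 10, beside 1454 of 28532 genes tested called higher. Within batch 3 the count was also 2, beside 2.09% of 26487 genes tested called higher. Within sham mice only Pdgfrb passed, at 1.91, beside 209 of 26018 genes tested. Astrocyte genes moved in the same direction, with 4 of 6 called higher in double-positive libraries and sums of 462 to 1353 CPM against 198 to 344 CPM, and so did all 6 fibroblast genes tested. Their part in the differences was not tested.

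The partners of the members were measured in the same libraries. Pdgfb, the ligand of the Pdgfrb receptor, was highest where the receptor was lowest, at 376 ± 43.7 CPM in double-positive and 373 ± 50.2 CPM in CD11b-positive libraries, against 176 ± 59.0 CPM in CaMKII positive and 25.1 ± 11.4 CPM in ACSA2-positive libraries. It was called lower in CaMKII positive than in double-positive libraries (log2FC −1.35, SE 0.13) and lower in ACSA2-positive than in CD11b-positive libraries (−3.85, SE 0.19). Pdgfd, another ligand of the same receptor, ran the other way, with 41.7 ± 13.1, 1.00 ± 1.55, 16.0 ± 7.22 and 0.191 ± 0.269 CPM in CaMKII positive, double-positive, ACSA2-positive and CD11b-positive libraries. The ligands Pdgfa (17.0, 20.9, 9.53 and 19.1 CPM) and Pdgfc (10.4, 1.44, 21.0 and 1.15 CPM), in the same order of populations, had higher means than Pdgfd in double-positive and CD11b-positive libraries and lower means in CaMKII positive ones. Pdgfra, the receptor of oligodendrocyte precursors and fibroblasts, averaged 108 ± 42.1 CPM in CaMKII positive and 5.20 ± 3.59 CPM in ACSA2-positive libraries. Of these 5 genes 3 were called higher and 1 lower in CaMKII positive than in double-positive libraries. Over all 30693 genes tested 26.4% were called higher and 5956 lower.

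Among 13 Notch ligands, receptors and targets, 11 were called higher in CaMKII positive than in double-positive libraries, beside 26.4% of 30693 genes tested. In ACSA2-positive against CD11b-positive libraries 8 were called higher, beside 32.4% of 30983 genes tested, and 1 lower, beside 6747 of those genes. Notch1 was the highest of the list, at 719 ± 106 CPM in CaMKII positive libraries and 831 ± 99.0 CPM in ACSA2-positive libraries. Heyl, a Notch target that mural cells use, followed Notch3 across populations, with 29.4 ± 9.33, 0.608 ± 0.572, 31.7 ± 8.09 and 0.237 ± 0.369 CPM in CaMKII positive, double-positive, ACSA2-positive and CD11b-positive libraries. Jag1, a ligand of Notch3, averaged 97.8 ± 23.1 CPM in the first of these and 70.6 ± 20.4 CPM in the third.

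Across the 10 CaMKII positive libraries most members varied with others of their kind. Kcnj8 and Vtn varied together (Pearson r of log2(CPM + 1) 0.96), as did Kcnj8 and Abcc9 (0.94), Abcc9 and Vtn (0.94) and Rgs5 and Kcnj8 (0.85). Acta2 and Tagln (0.96), Myh11 and Tagln (0.88) and Acta2 and Myh11 (0.84) did so too. Within the 8 libraries of batch 3 these r ran from 0.78 (Rgs5 and Kcnj8) to 0.87 (Kcnj8 and Vtn) for the pericyte pairs and from 0.63 (Acta2 and Myh11) to 0.92 (Acta2 and Tagln) for the contractile pairs. Between the kinds the sign depended on the batch 1 libraries of mice 2 and 8, since r was −0.40 between Acta2 and Abcc9 and −0.42 between Acta2 and Kcnj8 over all 10 libraries, and 0.58 and 0.08 within batch 3. For Pdgfrb r ran from 0.02 (Rgs5) to 0.63 (Higd1b) with the pericyte genes and from −0.36 to −0.16 with the contractile ones, and for Notch3 from 0.55 to 0.59 with the contractile genes. Within batch 3 the last 2 ranges were −0.24 to 0.10 and 0.16 to 0.17, and r of Pdgfrb with Rgs5 was −0.19. With the pericyte genes, r of Notch3 ran from −0.24 (Abcc9) to 0.32 (Pdgfrb) over all 10 libraries. Within batch 3 it ran from 0.31 (Rgs5) to 0.81 (Vtn) with them. Over the 17 ACSA2-positive libraries r was 0.96 between Kcnj8 and Vtn, 0.91 between Rgs5 and Vtn, and 0.91 between Abcc9 and Vtn. For Pdgfrb it ran there from 0.40 (Rgs5) to 0.71 (Abcc9) with the pericyte genes. For Myh11 r with the pericyte genes ran from 0.42 (Pdgfrb) to 0.87 (Kcnj8) in those libraries, a range that held its values with Acta2 (0.59) and Tagln (0.56). Within the 10 ACSA2-positive libraries of batch 3 the r of Myh11 ran from 0.43 (Higd1b) to 0.94 (Rgs5) with the pericyte genes and was −0.14 with Acta2 and 0.0486 with Tagln. The points of each correlation share the library, its depth and its batch, so these values are descriptions without a test.

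Among 13016 genes with a mean of at least 5 CPM, those most like the average of the members over the 10 CaMKII positive libraries were Gucy1b1 (r 0.92), Pcdh18 (0.91), Cd248 (0.86), Atp2a3 (0.86), Gper1 (0.84), Khdrbs3, Etfa, Angptl2 and Fam208b (0.83 each) and Aspn (0.82). Gucy1b1 encodes a subunit of soluble guanylate cyclase, the nitric oxide receptor, and Cd248 encodes endosialin, a surface protein of pericytes and fibroblasts. Repeated over the 17 ACSA2-positive libraries, the value was 0.88 for Atp2a3, 0.83 for Angptl2, 0.73 for Gper1, 0.67 for both Pcdh18 and Cd248, 0.48 for Etfa, 0.31 for Gucy1b1, 0.30 for Aspn, 0.27 for Fam208b and 0.14 for Khdrbs3. Over the double-positive libraries it ran from −0.52 (Fam208b) to 0.71 (Angptl2), and over the CD11b-positive libraries from −0.30 (Etfa) to 0.49 (Cd248).

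The lowest pericyte values of the ACSA2-positive population came from the same libraries, those of mice 12, 13 and 18, all sham and from batches 2, 2 and 3. Rgs5 stood there at 72.0, 176 and 110 CPM and in the other 14 libraries at 236 to 395 CPM. Vtn stood at 45.4, 56.0 and 46.6 CPM against 121 to 235 CPM. For Abcc9 the values were 18.4, 30.8 and 19.9 CPM against 43.2 to 99.1 CPM. These 3 libraries lay below all others for each of these genes, and did so also for Kcnj8 (2.30, 3.36 and 2.23 against 8.06 to 19.0 CPM), Higd1b (1.28, 1.15 and 1.82 against 2.57 to 9.85 CPM) and Myh11 (0.147, 0.224 and 0.0810 against 1.07 to 6.34 CPM). The other contractile members did not separate them, Acta2 with 1.38, 0 and 18.4 against 0.0563 to 34.1 CPM, where mouse 13 alone was lowest, and Tagln with 0.733, 0.924 and 2.83 against 0.676 to 5.52 CPM. For Notch3 (82.1, 78.1 and 73.0 against 68.1 to 149 CPM) they overlapped the rest. For Pdgfrb (271, 226 and 229 against 253 to 391 CPM) mouse 12 did, while mice 13 and 18 lay below all others by a smaller margin than for Rgs5. Endothelial sums in them were 168, 377 and 255 CPM, below the 547 CPM or more of the other 14, and sums of the 15 other pericyte genes were 116, 151 and 120 CPM, against 279 CPM or more. The libraries were picked out after their values were seen, so no test was made.

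**Figure D3:**
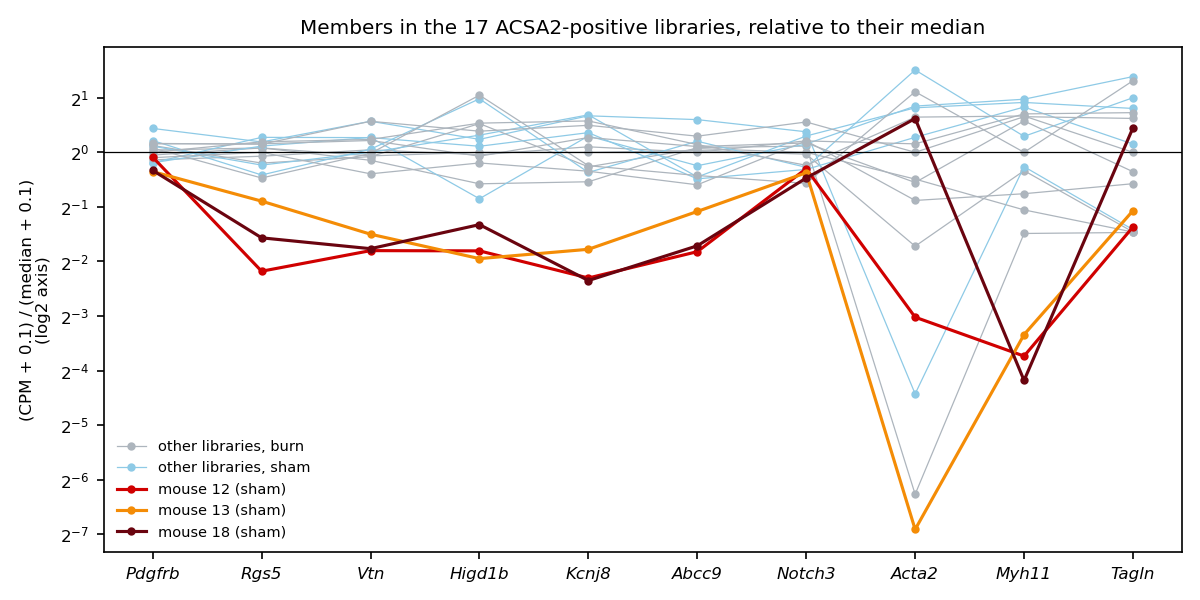
Level of each member in each of the 17 ACSA2-positive libraries, as (CPM + 0.1) divided by (median of the 17 libraries + 0.1) on a log2 axis, with 1 line per library. The lines of the sham mice 12, 13 and 18 drop below all others at Rgs5, Vtn, Higd1b, Kcnj8, Abcc9 and Myh11 and lie within the range of the others at Notch3 and Tagln, while at Pdgfrb mice 13 and 18 lie just below the rest.

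Burn and sham mice were then compared within each population, with batch as a covariate. No member was called in any population (edgeR, p.adj at most 0.05 and absolute log2FC of at least 1), and 0% of all genes tested were called in each. At an unadjusted p under 0.05 there were 4 of 10 members in CaMKII positive (3.9% of 28107 genes), 1 of 10 in double-positive (7.01% of 26707), 0 of 10 in ACSA2-positive (10.7% of 27930) and 0 of 9 in CD11b-positive libraries (7.81% of 26079). DESeq2 called 3, 2, 27 and 80 genes in these populations, with no member among them.

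In the CaMKII positive libraries the burn estimates farthest from 0 were those of the contractile genes. The 4 burn and 6 sham values of Acta2, Myh11 and Tagln given above overlapped in each gene, with the lowest value in a burn mouse and the highest in a sham mouse. The log2FC (burn minus sham) of Acta2 was −1.70 (SE 0.41, unadjusted p = 0.00119, p.adj = 1.00, edgeR) and that of Tagln was −1.66 (SE 0.56, unadjusted p = 0.0110, p.adj = 1.00). Myh11 (−1.20, SE 0.43, unadjusted p = 0.0155) and Vtn (−0.47, SE 0.22, unadjusted p = 0.0486) were the other 2 members at an unadjusted p under 0.05 in that edgeR fit. All 10 estimates were below 0, as were 48.2% of all genes tested, and the smallest in size was that of Pdgfrb, at −0.08 (SE 0.18). Within batch 3, which left out the high libraries of mice 2 and 8, Acta2 stood at −1.63 (SE 0.49) and Tagln at −1.69 (SE 0.71). Over the 18 alternatives the log2FC of Acta2 ran from −2.02 to −1.41 and that of Tagln from −2.29 to −1.24. Without the batch term the unadjusted p was 0.0636 for Acta2 and 0.172 for Tagln, and with DESeq2 the p.adj of Acta2 was 0.160.

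**Figure D4:**
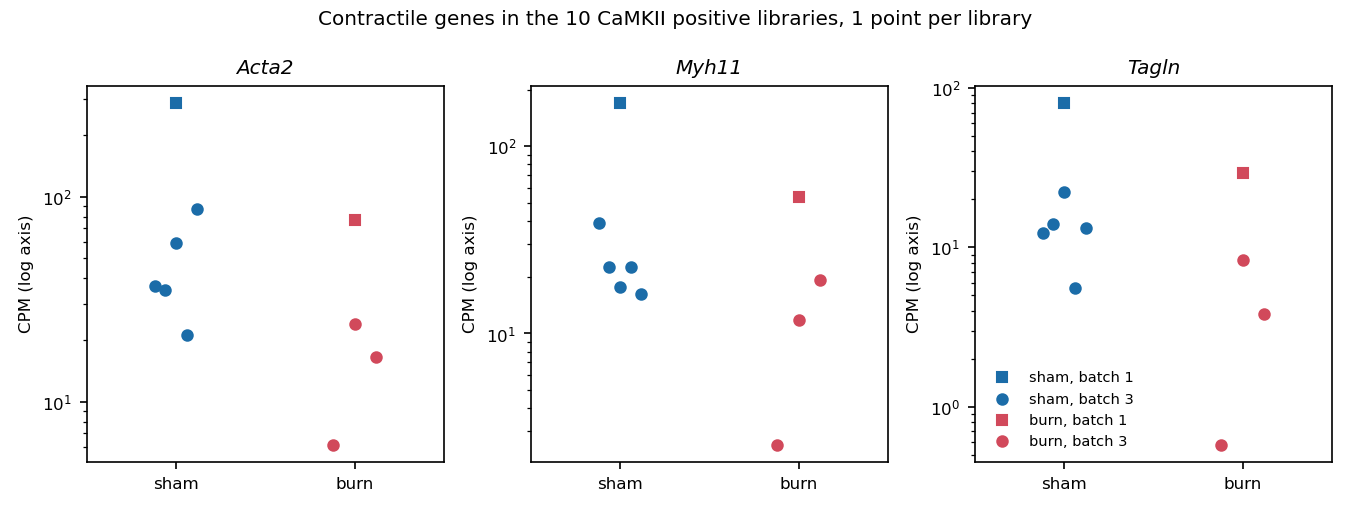
Acta2, Myh11 and Tagln in the 10 CaMKII positive libraries, in CPM on a log axis, with 1 point per library, sham against burn, squares for batch 1 and circles for batch 3. Both batch 1 libraries are the highest of their group, and the remaining burn points of Acta2 (6.13, 16.5 and 24.0 CPM) lie low beside, and overlap, the remaining sham points (21.1 to 87.1 CPM).

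Related lists were read in the same CaMKII positive edgeR fit. There 48.2% of all genes tested had estimates below 0, 51.8% above 0 and 3.9% an unadjusted p under 0.05. The 13 other smooth muscle genes all had estimates below 0 (median −0.60), and 2 had an unadjusted p under 0.05, Myl9, a myosin light chain (−0.88, SE 0.29), and Pln, the phospholamban gene (−2.83, SE 0.93), without a call. The median of the 15 other pericyte genes was −0.29 and that of the 9 endothelial genes −0.16, with endothelial sums of 4330 to 7427 CPM in burn and 4475 to 12135 CPM in sham libraries. Fibroblast genes, which can accompany arteriolar smooth muscle, summed to 95.3 to 190 CPM in burn and 57.0 to 725 CPM in sham libraries, with 1 of the 7 genes at 0 in all libraries of each group. The 5 oligodendrocyte precursor genes had estimates above 0, 3 of them at an unadjusted p under 0.05, with sums of 367 to 556 CPM in burn and 170 to 479 CPM in sham libraries. The part of these cells in the contractile values was not tested.

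In the ACSA2-positive libraries the smallest p among the members belonged to Rgs5 and Abcc9. Rgs5 ran from 236 to 373 CPM (median 345) in 9 burn and from 72.0 to 395 CPM (median 261) in 8 sham libraries, a log2FC of 0.33 (SE 0.21, unadjusted p = 0.131, edgeR p.adj = 0.629). Abcc9 ran from 43.2 to 80.3 CPM (median 68.5) and from 18.4 to 99.1 CPM (median 47.2), a log2FC of 0.33 (SE 0.21, unadjusted p = 0.139, edgeR p.adj = 0.642). Burn and sham overlapped for both, and the low ends of the sham ranges were the libraries of mice 12, 13 and 18. Estimates lay above 0 for 8 of 10 members, beside 55.8% of all genes tested. Without those 3 libraries, an alternative chosen after seeing the data, Rgs5 stood at −0.0167 and Abcc9 at −0.0408. There 1 of 10 members lay above 0, beside 54.5% of all genes tested. None of the 9 endothelial genes was called (median log2FC 0.57, smallest p.adj 0.458, edgeR). At an unadjusted p under 0.05 there were 7 of 9, beside 10.7% of all genes tested, and 0 of 9 without the 3 libraries, where all 9 estimates were above 0 (median 0.22).

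In the double-positive libraries the smallest p belonged to Higd1b and Acta2, and the estimates ran from −3.38 (Kcnj8, SE 1.74, 85 counts in all) to 3.98. Higd1b had 32 counts over all 16 double-positive libraries, 13 of them in burn mouse 23 (0.688 CPM), and a log2FC of 3.98 (SE 1.68, unadjusted p = 0.0277, edgeR p.adj = 0.708), which ran from 1.17 to 4.91 over the alternatives. Acta2 ran from 0.360 to 7.53 CPM (median 0.785) in 9 burn and from 0 to 0.616 CPM (median 0.375) in 7 sham double-positive libraries, which overlapped (log2FC 1.69, SE 0.86, unadjusted p = 0.0619, edgeR p.adj = 0.732), and its log2FC ran from 0.96 to 2.57 over the alternatives. The highest of these values came from burn mouse 10, whose library also held the highest endothelial sum (738 CPM, the other 15 double-positive libraries 67.9 to 370 CPM), fibroblast sum (132 CPM, the others 3.23 to 13.4 CPM) and oligodendrocyte precursor sum (136 CPM, the others 3.25 to 41.9 CPM). Without it the log2FC of Acta2 was 1.71 (SE 0.93). The double-positive libraries used from batch 1, that of mouse 10 among them, all came from burn mice. With batch as a covariate they could add little to this estimate, so leaving out mouse 10 does not test it. Of the 10 members 5 had estimates above 0, beside 49.2% of all genes tested. In CD11b-positive libraries the smallest p were those of Vtn (−0.50, SE 0.53, unadjusted p = 0.353) and Acta2 (1.11, SE 1.304, unadjusted p = 0.404) in the edgeR fit, and 4 of 9 estimates lay above 0, beside 50.5% of all genes tested. Over the alternatives these ran from −0.79 to −0.19 for Vtn and from 0.46 to 2.05 for Acta2. Higd1b was not tested there.

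**Figure D5:**
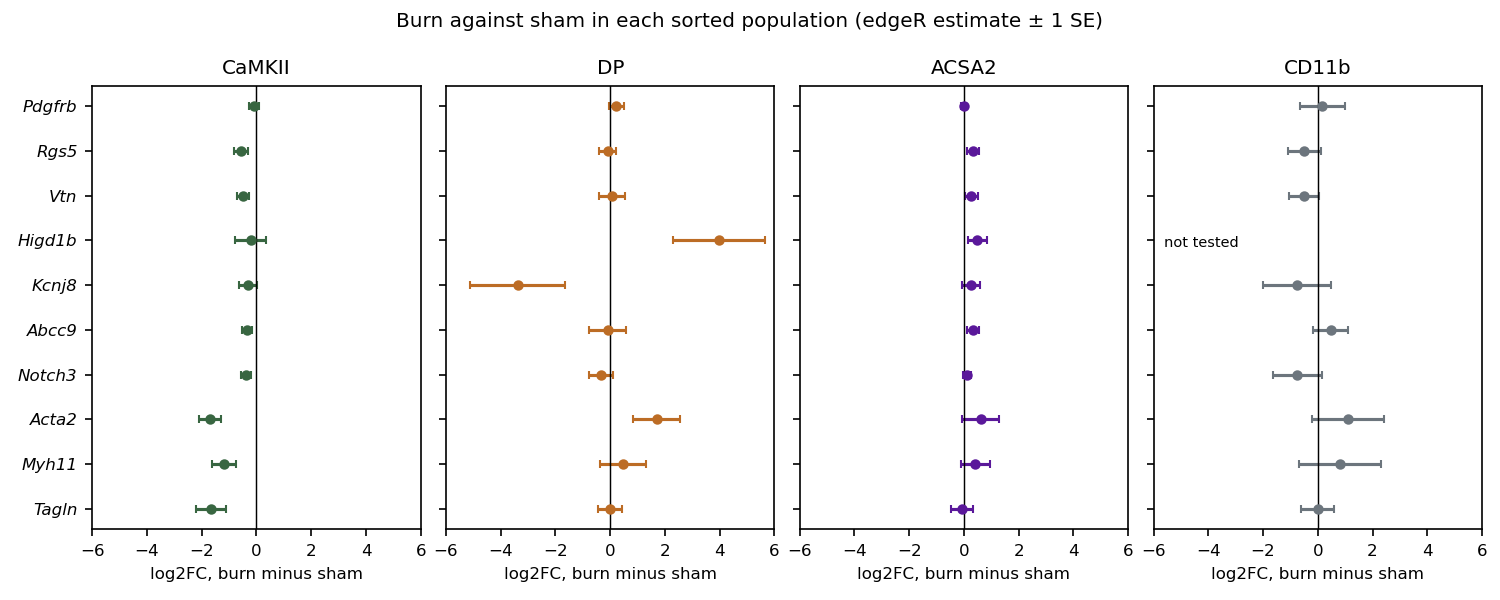
Log2FC of burn minus sham for each member in each population, from edgeR with batch as a covariate, with bars of 1 SE. The CaMKII positive estimates lie between −1.70 and −0.08, the ACSA2-positive ones between −0.07 and 0.60, and Higd1b was not tested in CD11b-positive libraries.

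The difference between burn effects was tested itself for the populations that share a tissue. No member had a p.adj of at most 0.05, beside 0.00977% of 30693 genes for CaMKII positive minus double-positive and 0.00323% of 30983 genes for ACSA2-positive minus CD11b-positive libraries (edgeR). In the former, Acta2 differed most by p, with −3.25 (SE 0.91, unadjusted p = 0.00148, edgeR p.adj = 0.467), and Higd1b (−3.67, SE 1.68) and Tagln (−1.61, SE 0.76) also had an unadjusted p under 0.05. Over all genes 1846 of 30693 had such a p in that edgeR fit. In the 9 mice with both libraries, without a block and with it, Acta2 stood between −3.05 and −2.68. For ACSA2-positive minus CD11b-positive libraries, the smallest p was that of Vtn, at 0.75 (SE 0.50, unadjusted p = 0.142, edgeR p.adj = 0.796).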

How the data were processed

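RNA-seq was performed by the authors on RNA of sorted cells after ribosomal RNA depletion. Reads were trimmed with fastp, aligned with STAR to GRCm39 (the labels also list mm10) and counted per Ensembl gene, and 1 table of raw counts per population was deposited by the authors without normalisation. The strand setting of the counting is not given in the sources used here. Their normalised tables were not used, and 0 count columns were left unmatched. The libraries of mouse 3 and the double-positive library of mouse 8 were left out, as the study did, which kept 58 of 63 libraries.

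The counts were tested as deposited with edgeR 4.0.16 (quasi-likelihood, TMM, genes with at least 10 counts in total) in R 4.3.3, and p-values were adjusted by Benjamini-Hochberg across every gene in the fit. Batch was a covariate for burn against sham, and batch and treatment for comparisons of populations. A call needed p.adj of at most 0.05 and absolute log2FC of at least 1, and p.adj alone for differences between burn effects. SE was taken from log2FC and the F statistic (its size over root F). Each library of a population came from another mouse. CPM used the total count of each library, and depth limits were 3 counts. Exon lengths and overlaps came from GENCODE M21 and sequences from RefSeq, both of build GRCm38, so positions are those of that build and not of the alignment. Levels were computed in Python 3.11.15 (pandas 2.3.3 for tables, numpy 2.4.6) and drawn with matplotlib 3.10.9, and the tests were checked on simulated counts.

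The 10 genes, the gene lists and the tests were chosen with earlier results of these data known. All members were to be named in every level and in comparisons within 1 tissue, the 2 with the smallest p in each population for burn against sham, and the 10 genes most like them in CaMKII positive libraries. Gene names given beyond this rule were chosen after their values were seen. Libraries with 1 number came from 1 mouse, by the labels and the study's sample list. Their deviations from the group means correlated with a median r of 0.04 to 0.19 between populations, against −0.02 to 0.00 between mice. Alternatives were a replicate block by mouse, DESeq2 1.42.0, its size factors, library size only, filterByExpr, no filter, no batch term, batch 3 alone, sham mice alone, all deposited libraries and leaving out each mouse. The block was fitted to the mice with both libraries alone. Fits of these without a block, leaving out the ACSA2-positive libraries of mice 12, 13 and 18 or the double-positive library of mouse 10, or for levels the CaMKII positive library of mouse 2 or mouse 8, and correlations within batch 3, were added after seeing the data.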

Additional observations from a re-analysis of the deposited data

Results flagged for a closer look

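In 11 of 79 groups of 4 to 9 libraries 1 library stood apart from the rest of its group in a member's CPM, by the gap to its nearest neighbour relative to the range of the group, where chance gives about 1 in 20 for normally distributed values. The CPM values are skewed and many of Higd1b are 0, so that share is only a rough guide here. The CaMKII positive library of sham mouse 8 stood apart for Acta2 (286 CPM, next 87.1), Myh11 (170 CPM, next 39.0) and Tagln (80.3 CPM, next 22.1). The double-positive library of burn mouse 10 did so for Acta2 (7.53 CPM, next 2.50) and Myh11 (4.03 CPM, next 1.85), and its endothelial (738 CPM), fibroblast (132 CPM) and oligodendrocyte precursor (136 CPM) sums were also the highest of the 16 double-positive libraries. That of sham mouse 18 did so for Notch3 (8.33 CPM, next 3.42). Higd1b stood apart in the double-positive libraries of burn mouse 23 (0.688 CPM, next 0.166) and sham mouse 12 (0.0743 CPM, next 0) and in the CD11b-positive library of burn mouse 21 (0.0545 CPM, next 0.0209). The values of mice 12 and 21 were 4 counts and 1 count, below what a count of 0 allows in the batch 3 libraries of their groups (0.110 to 0.212 CPM and 0.117 to 0.164 CPM), so at this depth they could not be told from the rest. Among CD11b-positive libraries, Rgs5 stood apart in burn mouse 7 (7.74 CPM, next 3.24) and Kcnj8 in sham mouse 17 (2.12 CPM, next 0.671).

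The libraries of burn mouse 3, which entered no comparison, exceeded every sham library of their population in 5 of 40 combinations of member and library. Over all genes whose counts summed to 10 or more over the compared libraries of a population, 6.94% did so in the CaMKII positive, 9.16% in the double-positive, 9.67% in the ACSA2-positive and 13.6% in the CD11b-positive library of mouse 3. The 5 were Rgs5 (617 CPM, highest sham library 395), Abcc9 (104 CPM, highest sham library 99.1) and Notch3 (139 CPM, highest sham library 131) in the ACSA2-positive library, Higd1b in the double-positive library (0.128 CPM from 5 counts, highest sham library 0.0743) and Acta2 in the CD11b-positive library (2.82 CPM, highest sham library 2.00).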

How the results depend on the processing

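The count of members called was within 1.5 times its reported value in 159 combinations of comparison and alternative. The other 6 were CaMKII positive against ACSA2-positive libraries within batch 3 (1 member), and double-positive against CD11b-positive libraries with the replicate block (2), in mice with both libraries without a block (3), without the double-positive library of mouse 10 (3), within batch 3 (2) and within sham mice (1). Leaving out single mice, the counts for burn against sham ran from 0 to 0 in every population. Besides the calls given beside their results the replicate block changed no other call of a member. The burn estimate in ACSA2-positive libraries turned to −0.0167 for Rgs5 and −0.0408 for Abcc9 without mice 12, 13 and 18, as did Vtn in CaMKII positive minus ACSA2-positive libraries (−0.0556). Kcnj8 in that last comparison turned to 0.00173 with the size factors of DESeq2, 0.00224 with DESeq2, 0.0865 with library size only, 0.24 within batch 3 and 0.11 within sham mice. The cause was not tested. Library size only moved the median log2FC of all genes from 0.05 to 0.29 for CaMKII positive minus double-positive libraries and from 0.00 to 0.16 for CaMKII positive minus ACSA2-positive libraries.

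Over all genes, burn against sham had 0 calls, against 3 (CaMKII positive), 2 (double-positive), 27 (ACSA2-positive) and 80 (CD11b-positive) with DESeq2, 14 (double-positive) and 4 (ACSA2-positive) without a filter, and 136 (double-positive) with all deposited libraries. The replicate block keeps only mice with both libraries. In place of 3 (CaMKII positive minus double-positive) and 1 (ACSA2-positive minus CD11b-positive) for differences between burn effects, these mice gave 1 and 0 without the block and 0 and 0 with it. For CaMKII positive against ACSA2-positive libraries, 10 against 10 in place of 10 against 17, they gave 4320 without and 3302 with the block in place of 4978. For double-positive against CD11b-positive libraries, 14 against 14 in place of 16 against 15, they gave 1627 and 1092 in place of 2179. With sham mice alone the last 2 comparisons gave 2808 and 369, and within batch 3 the latter was 1008. filterByExpr, which tests fewer genes, gave 10704 for 16799 (ACSA2-positive against CD11b-positive), 8529 for 13335 (CaMKII positive against CD11b-positive), 9105 for 14046 (CaMKII positive against double-positive), 10603 for 17041 (double-positive against ACSA2-positive), 2998 for 4978 and 953 for 2179.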

Other observations

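The double-positive library of sham mouse 8 held 331215 counts and no count of any of the 10 members, where a count of 0 allows up to 9.06 CPM of each. In the other double-positive sham libraries only Rgs5 exceeded that limit in any library (up to 13.1 CPM), so the counts of 0 set apart none of the other 9 members from the levels seen there.

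Markers of oligodendrocyte precursors were also present in the CaMKII positive libraries that carried mural genes. The 5 precursor genes summed to 385 ± 127 CPM (SD, n = 10), against 142 ± 22.5 CPM (n = 17) in ACSA2-positive, 19.0 ± 32.5 CPM (n = 16) in double-positive and 3.76 ± 2.42 CPM (n = 15) in CD11b-positive libraries. The double-positive mean rested on the library of mouse 10 (136 CPM), and without it, a choice made after seeing the data, it was 11.2 ± 9.70 CPM (n = 15). Genes of border macrophages, which lie along vessels, summed to 16.4 ± 10.7 CPM in CaMKII positive, 0.692 ± 0.617 CPM in ACSA2-positive, 95.4 ± 41.0 CPM in double-positive and 232 ± 84.7 CPM in CD11b-positive libraries. Red blood cell genes were at or near 0, with at most 6.26 CPM in any CaMKII positive library.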
